A study of Mus musculus with 12 samples.

Results

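The genes described here encode 7 members of the SLC2 (GLUT) family of facilitative sugar transporters: Slc2a1, Slc2a3, Slc2a4, Slc2a5, Slc2a6, Slc2a8 and Slc2a9. They were found by gene symbol, or an older alias, among the 18430 named genes on Affymetrix Mouse Exon 1.0 ST arrays, and each had a single row there. The platform held 12 SLC2 genes in all, and the other 5 (Slc2a2, Slc2a7, Slc2a10, Slc2a12 and Slc2a13) serve as the nearest family for comparison. The arrays set brainstem microglia (BSM), the resident macrophages of the brain, against monocytes taken from the bone marrow (BMDM). Both cell types came from C57BL/6 mice aged 6 weeks, and the labels name no agent given to them. Per the labels, BSM were sorted as CD11b+, CD45low, CD115low and Ly6G- cells, and BMDM as CD11b+, CD45high, CD115+ and Ly6G- cells. There were 3 arrays of each cell type, each with amplified RNA of its own pool of sorted cells from several animals. The pool of replicate 1 of each cell type was labelled female and belonged to the sets that were also sequenced. The pools of replicates 2 and 3 were labelled male and came from additional sets made for the arrays. Sex and set therefore cannot be told apart.

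GLUT proteins let hexoses pass down their concentration gradient without using energy, in contrast to sodium-coupled sugar transporters. They fall into class I, the plasma membrane glucose carriers (GLUT1, GLUT3 and GLUT4), class II, which holds the fructose carrier GLUT5 and the urate carrier GLUT9, and class III, with the largely intracellular GLUT6 and GLUT8. In the brain GLUT1 is known from the blood-brain barrier and glia, GLUT3 from neurons, and GLUT5 from microglia, where antibodies to it have long served as a marker in human tissue.

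The arrays carried what their labels said. All 8 measured microglia markers were higher in BSM, with a summed linear intensity of 27320 to 28940 on the BSM arrays and 872 to 1049 on the BMDM arrays. All 6 measured monocyte markers were lower in BSM, with sums of 146 to 183 on the BSM arrays and 20180 to 21350 on the BMDM arrays. Pearson's r across all rows ranged from 0.983 to 0.989 within BSM, from 0.991 to 0.992 within BMDM, and from 0.855 to 0.870 between the cell types. Markers of other cells were also measured, since both sorts could carry cells over. The 9 measured neutrophil markers summed to 209 to 301 on BSM arrays and to 12260 to 13560 on BMDM arrays, and all of them were lower in BSM. They did so unequally, with log2 differences (BSM minus BMDM) of -7.18 for S100a8 and -7.10 for Mpo. The gaps were smaller for Ly6g (-1.31), the gene of the protein that both sorts excluded, and for Cxcr2 (-1.19). Of 8 erythroid markers 5 were lower and 1 was higher in BSM, with sums of 303 to 459 on BSM arrays and 5356 to 8211 on BMDM arrays. Most of the BMDM sums came from Hbb-b1 (a log2 difference of -5.60, BSM minus BMDM), while Klf1 (-0.28) and Epor (0.30) did not pass. Of 6 astrocyte markers 4 were higher in BSM, with sums of 351 to 357 on BSM arrays and 127 to 130 on BMDM arrays, most of it from Slc1a3 (a log2 difference of 3.53, BSM minus BMDM). Aqp4 was higher by 1.26 (adjusted p = 7.9e-05 from the limma fit), Slc1a2 by 0.36 and Aldh1l1 by 0.32, while Gfap (0.17) and Gja1 (-0.12) did not pass, and these 5 lay under their array's median on all 6 arrays. Endothelial markers summed to 311 to 320 on BSM arrays and to 316 to 341 on BMDM arrays, with 2 of 10 higher and 1 lower in BSM, and they did not run alike. Cldn5 lay below the median of its own array on all 6 arrays, Pecam1 lay above it on all 6 (means of 6.59 in BSM and 6.52 in BMDM), and Flt1 was lower in BSM (-1.44), with its BMDM arrays above their medians. The part of these cells in the transporter levels was not tested, and in sorted pools fewer cells of a type and less RNA per cell cannot be told apart.

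Levels are log2 of the linear intensities in the table that the authors made with Aroma, and differences are BSM minus BMDM on that scale. They were tested with limma over all 21837 rows of the table, and a row was called at a Benjamini-Hochberg adjusted p under 0.05. The cell types differed so widely that 49.6% of all rows were called, 28.0% as higher and 21.6% as lower in BSM. Against this, 3 of the 7 transporters were called: Slc2a5 and Slc2a8 were higher in BSM, Slc2a6 was lower, and Slc2a1, Slc2a3, Slc2a4 and Slc2a9 did not pass. The 3 arrays of each cell type did not overlap for 5 of the 7 transporters, which compares with 60.8% of all rows. The share of transporters that differed was thus near that of the whole table, and what set them apart from each other was size and direction. The median difference of the 7 was 0.31, and that of all rows was 0.18, so that a gene at the middle of the table stood slightly above 0. The same arrays summarised with Expression Console, in which 28.9% of 23332 rows were called (8.38% as higher and 20.5% as lower), held 6 of the 7 transporters and also had 2 called higher and 1 called lower.

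**Figure D1:**
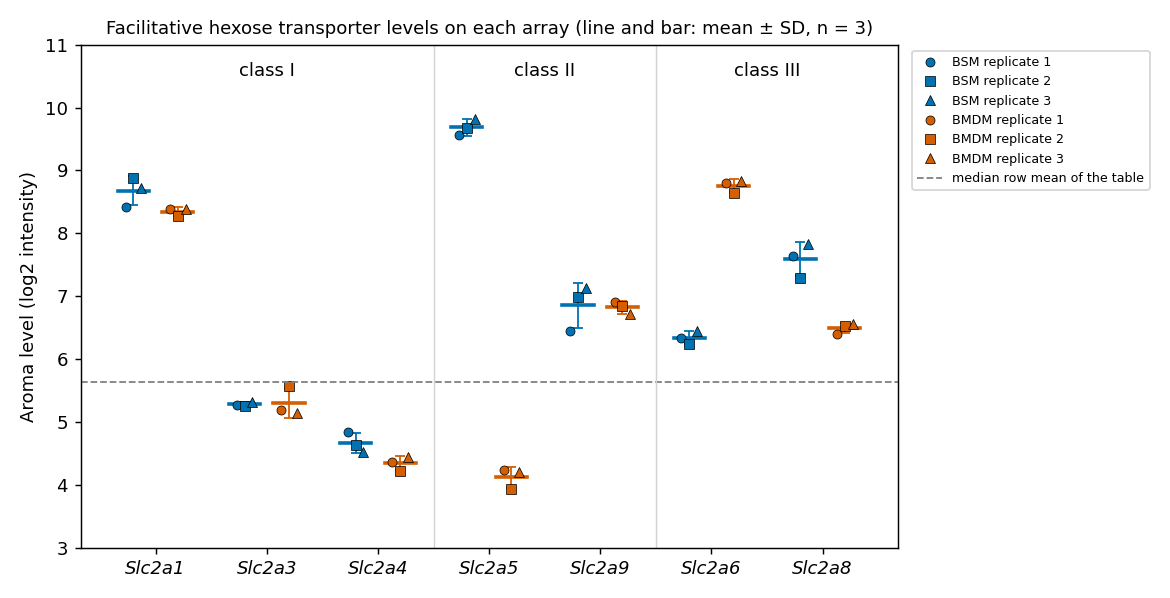
Level of each of the 7 transporters (log2 Aroma intensity, vertical axis) on each of the 6 arrays, BSM in blue to the left of BMDM in orange; lines and bars give mean ± SD of 3 arrays and the dashed line the median row mean of the table (5.63). Slc2a5 and Slc2a8 stood higher on every BSM array and Slc2a6 lower, while the arrays of Slc2a3 and Slc2a9 overlapped; heights of different genes come from different probes and do not compare.

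Slc2a5, which encodes the fructose carrier GLUT5, showed by far the widest gap of the family. It reached 9.56, 9.67 and 9.82 in BSM replicates 1 to 3 and 4.23, 3.93 and 4.20 in BMDM replicates 1 to 3. The BSM arrays lay close together and far above the BMDM arrays, all 3 of which were below the median of their own array, where a level includes background. The means were 9.68 ± 0.13 in BSM and 4.12 ± 0.17 in BMDM (SD, n = 3 each), a difference of 5.56 (SE 0.12, 95% confidence interval 5.28 to 5.85, limma adjusted p = 1.8e-08). On the linear scale the intensities were 754, 815 and 906 in BSM and 18.8, 15.2 and 18.4 in BMDM, a 47.3-fold difference of the geometric means. Since the BMDM level includes background, this is a ratio of measured intensities and not of transcript numbers. The difference ranked 38 among the 21837 rows from the highest difference down, and of all rows 0.623% were called with a difference of at least 5 in either direction and 0.238% with one in the direction of Slc2a5. In the Expression Console table the levels were 9.58, 9.85 and 9.91 in BSM and 4.73, 4.23 and 4.64 in BMDM, a difference of 5.25 (SE 0.17) or 38.0-fold with a limma adjusted p of 1.5e-05.

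A promoter window was available from RefSeq (assembly GRCm38.p6, 250 bases before to 50 after the start of the gene, 300 bases in all) for 5 of the 7 transporters, without Slc2a3 and Slc2a4. The windows of the 3 called transporters are printed because these are the genes whose levels differed, 5′ to 3′ in the direction of the gene. For Slc2a5 the window lies at chr4:150119094-150119393 on the + strand. Capitals mark the letters CCGCCC, the reverse complement of the GC box GGGCGG to which Sp family factors bind.
Slc2a5: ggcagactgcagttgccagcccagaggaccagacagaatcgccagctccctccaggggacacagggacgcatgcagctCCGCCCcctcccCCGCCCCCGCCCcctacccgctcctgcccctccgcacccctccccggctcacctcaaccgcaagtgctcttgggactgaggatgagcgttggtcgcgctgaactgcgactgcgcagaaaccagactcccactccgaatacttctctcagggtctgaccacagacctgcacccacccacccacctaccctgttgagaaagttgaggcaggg
The GC box was searched on both strands and occurred 3 times, each time as CCGCCC and with no shared bases. At least 3 matches were present in 10.7% of all 32851 RefSeq windows of this length, and 65.3% of the bases were G or C. The core GAGGAA, bound by the myeloid factor PU.1, had no match on either strand in any of the 5 windows, while 28.3% of all windows had at least 1.

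The genes with a pattern most like that of Slc2a5 were sought among 18820 rows with 1 symbol by the Euclidean distance of gene-centred log2 levels over the 6 arrays. The nearest was Adgrg1, which encodes an adhesion G protein-coupled receptor (GPR56), at a distance of 0.27. It had 10.91, 11.23 and 11.17 in BSM and 5.68, 5.52 and 5.50 in BMDM, a difference of 5.54. Ecscr, which encodes a cell surface regulator first described in endothelial cells, followed at 0.31 with a difference of 5.58, and Ltc4s, the leukotriene C4 synthase, at 0.34 with a difference of 5.42. With 6 arrays in 2 cell types such likeness mostly describes a shared size of the gap between BSM and BMDM.

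Slc2a8 encodes GLUT8, a hexose carrier that is retained inside the cell. Its levels were 7.64, 7.29 and 7.83 in BSM and 6.40, 6.53 and 6.56 in BMDM. Every BSM array was above every BMDM array, and the BSM arrays were the more scattered, with replicate 2 the lowest. The means of 7.59 ± 0.27 in BSM and 6.50 ± 0.082 in BMDM (SD, n = 3 each) differed by 1.09 (SE 0.15, 95% confidence interval 0.76 to 1.42, 2.13-fold, limma adjusted p = 0.00037). The Expression Console table gave 7.20, 7.12 and 7.41 in BSM and 6.23, 6.46 and 6.41 in BMDM, a difference of 0.88 (SE 0.12, 1.84-fold, limma adjusted p = 0.0031). The window of Slc2a8 lies at chr2:32982034-32982333 on the - strand, and capitals mark CCAAT boxes, to which the factor NF-Y binds, in either orientation (CCAAT or ATTGG).
Slc2a8: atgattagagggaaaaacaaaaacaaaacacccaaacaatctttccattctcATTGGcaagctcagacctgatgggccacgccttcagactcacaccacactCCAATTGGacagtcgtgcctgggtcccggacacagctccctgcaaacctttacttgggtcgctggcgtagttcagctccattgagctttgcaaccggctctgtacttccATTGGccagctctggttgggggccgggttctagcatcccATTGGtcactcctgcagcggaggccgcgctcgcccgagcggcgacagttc
There were 5 matches, 1 forward and 4 in reverse, of which the forward one and 1 reverse one share 2 letters in the run CCAATTGG. At least 5 matches were present in 0.271% of all windows, or 89 of 32851. The threshold is the count found here, the highest of any motif searched in the transporters' windows, so this share is a description and not a test. Slc2a8 had no GC box in its window, and 55.7% of the bases were G or C.

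Slc2a6 moved the other way. It encodes GLUT6, which in mouse macrophages has been placed on lysosomes. Its levels were 6.34, 6.23 and 6.44 in BSM and 8.80, 8.64 and 8.82 in BMDM, so that both cell types were tight and did not overlap. The means were 6.34 ± 0.10 in BSM and 8.76 ± 0.10 in BMDM (SD, n = 3 each), a difference of -2.42 (SE 0.11, 95% confidence interval -2.66 to -2.17), or a level 5.34-fold lower in BSM (limma adjusted p = 4.6e-07). All BSM arrays remained above the median of their own array. In linear intensity Slc2a6 had 81.0, 75.3 and 87.0 in BSM and 446, 399 and 454 in BMDM. In the Expression Console table the difference was -2.62 (SE 0.097, limma adjusted p = 2.3e-05). All 9 neutrophil markers, 5 of the 8 erythroid markers and 3 of the 4 measured lymphocyte markers were lower in BSM as well. The erythroid marker Ermap was higher (0.52), and the lymphocyte marker Cd3e (0.35) did not pass. The part of these cells in the difference of Slc2a6 was not tested. The window of Slc2a6 lies at chr2:27027949-27028248 on the - strand, and capitals mark 2 GC boxes (CCGCCC and GGGCGG) and 2 CCAAT boxes (ATTGG and CCAAT).
Slc2a6: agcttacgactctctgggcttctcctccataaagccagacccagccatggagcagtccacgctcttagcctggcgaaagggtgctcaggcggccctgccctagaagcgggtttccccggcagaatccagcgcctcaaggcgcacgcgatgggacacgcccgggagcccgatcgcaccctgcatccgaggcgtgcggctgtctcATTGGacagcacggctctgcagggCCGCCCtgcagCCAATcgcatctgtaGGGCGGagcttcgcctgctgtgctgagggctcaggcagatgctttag
At least 2 GC boxes were present in 19.5% of all windows and at least 2 CCAAT boxes in 11.7%. The windows of the 2 transporters higher in BSM thus shared neither element with each other, while that of the 1 lower held both. The window of Slc2a1, which was not called, also held both, with 2 GC boxes and 1 CCAAT box. Such matches describe the sequence and do not mark sites in use.

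**Figure D2:**
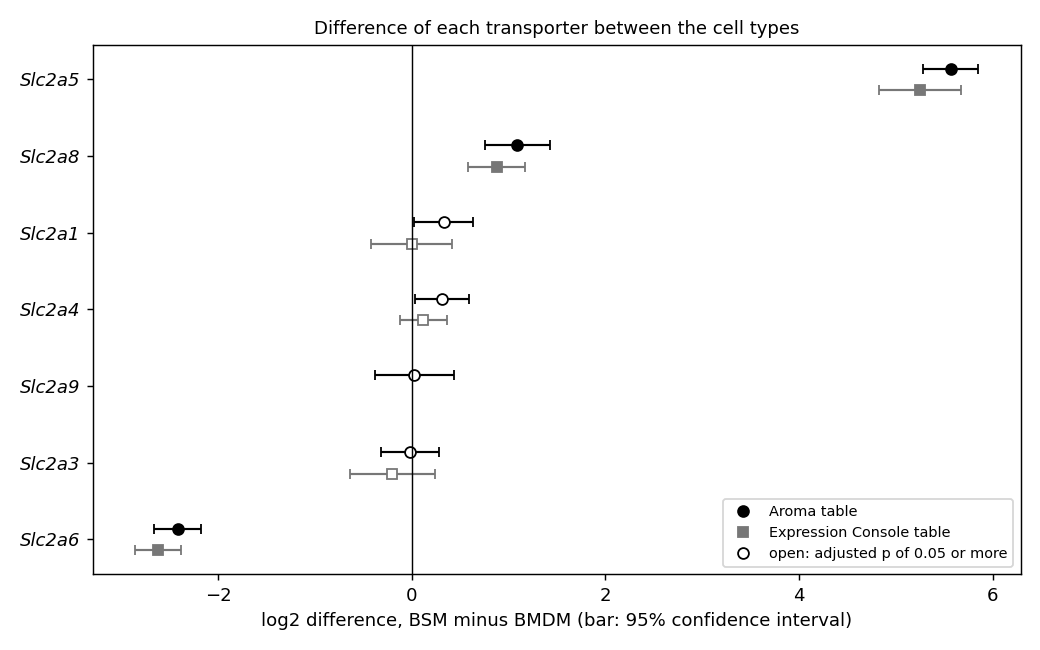
Difference of each transporter between BSM and BMDM (log2, horizontal axis; bars are 95% confidence intervals) from the Aroma table (black circles) and the Expression Console table (grey squares), with open symbols for adjusted p of 0.05 or more. Slc2a5 (5.56 and 5.25), Slc2a8 (1.09 and 0.88) and Slc2a6 (-2.42 and -2.62) lie clear of 0 in both tables, and Slc2a9 has a value in the Aroma table alone.

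Among the class I glucose carriers no difference passed the test. Slc2a1, which encodes the widely expressed carrier GLUT1, had 8.42, 8.88 and 8.72 in BSM and 8.38, 8.27 and 8.39 in BMDM. All BSM arrays were above the BMDM arrays, BSM replicate 1 by the narrowest margin. The means of 8.67 ± 0.23 in BSM and 8.34 ± 0.066 in BMDM (SD, n = 3 each) differed by 0.33 (SE 0.13, 95% confidence interval 0.02 to 0.63, limma adjusted p = 0.069). This call was sensitive to the processing. In the Expression Console table the levels were 8.14, 8.71 and 8.61 in BSM and 8.52, 8.40 and 8.54 in BMDM, which overlapped, and the difference was -0.0008 (95% confidence interval -0.42 to 0.42, limma adjusted p = 1). Without BSM replicate 1 the Aroma difference was 0.46 with a limma adjusted p of 0.012, and when the array medians were set equal it was 0.14 with an adjusted p of 0.51.

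Slc2a3 encodes GLUT3, the high-affinity carrier best known from neurons. Its levels were 5.27, 5.26 and 5.32 in BSM and 5.19, 5.57 and 5.13 in BMDM, below the median of the array on 5 of 6 arrays. BMDM replicate 2 was the highest of the 6, and the other BMDM arrays were the lowest. The means were 5.28 ± 0.034 in BSM and 5.30 ± 0.24 in BMDM (SD, n = 3 each), and the difference of -0.02 had a 95% confidence interval of -0.32 to 0.29 (limma adjusted p = 0.92).

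Slc2a4, whose product GLUT4 is the insulin-responsive carrier of muscle and fat, had 4.83, 4.63 and 4.52 in BSM and 4.37, 4.22 and 4.45 in BMDM. It was below the median of its array on all 6 arrays, and the BSM arrays were above the BMDM arrays by a small margin. The means of 4.66 ± 0.16 in BSM and 4.35 ± 0.11 in BMDM (SD, n = 3 each) differed by 0.31 (SE 0.12, 95% confidence interval 0.04 to 0.59, limma adjusted p = 0.059). With Expression Console the arrays overlapped and the difference was 0.12 (limma adjusted p = 0.44).

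Slc2a9 encodes GLUT9, which carries urate. Its levels were 6.44, 6.99 and 7.13 in BSM and 6.91, 6.84 and 6.72 in BMDM. The BSM arrays spanned the BMDM arrays, with the female BSM pool below all of them and both male BSM pools above. The means were 6.85 ± 0.36 in BSM and 6.82 ± 0.10 in BMDM (SD, n = 3 each), a difference of 0.03 (SE 0.18, 95% confidence interval -0.38 to 0.44, limma adjusted p = 0.90). Slc2a9 was not analysed in the Expression Console table.

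The female and male pools could be set side by side, with 1 female and 2 male arrays of each cell type. For Slc2a9 the difference between BSM and BMDM was -0.48 in the female pools and 0.28 in the male pools. The spread behind any test of this contrast comes from the male arrays alone. The term for sex by cell type was -0.75 (SE 0.22) with an unadjusted p of 0.015 and an adjusted p of 0.65 from limma over all rows. No row of the table (0%) was called for this term, while 1551 rows had an unadjusted p under 0.05, so the adjusted p separates no gene from another and leaves the values of Slc2a9 as a description. Slc2a1 differed by 0.04 in the female pools and by 0.47 in the male pools (limma adjusted p = 0.76 for the term). The 3 called transporters kept their direction in both, with 5.32 and 5.68 for Slc2a5, 1.24 and 1.02 for Slc2a8 and -2.46 and -2.39 for Slc2a6 in female and male pools.

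The other SLC2 genes were all dim. Slc2a2, which encodes the liver and islet carrier GLUT2, Slc2a7, Slc2a10, Slc2a12 and the proton-coupled myo-inositol carrier gene Slc2a13 were below the median of their array on all 6 arrays. Slc2a12 averaged 5.48 ± 0.12 in BSM and 4.91 ± 0.099 in BMDM (SD, n = 3 each), a difference of 0.56 (SE 0.11, limma adjusted p = 0.0032), and Slc2a7 had 5.20, 4.94 and 4.86 in BSM and 4.38, 4.65 and 4.68 in BMDM, a difference of 0.43 (SE 0.13, adjusted p = 0.028). Slc2a2 (0.35), Slc2a10 (0.41) and Slc2a13 (0.24) did not pass. When the array medians were set equal, Slc2a12 was the 1 of the 5 that was called, and 0 of the 3 measured with Expression Console passed. Slc2a7 and Slc2a13 were not measured there. The median difference of the 5 was 0.41 against 0.18 for all rows.

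Of 8 sodium-coupled and SWEET sugar transporters 4 were higher and 0 were lower in BSM, and the median was 0.34. The widest gap was that of Slc5a10, a sodium-coupled mannose and fructose carrier known from kidney, with 5.71, 5.48 and 5.67 in BSM and 4.47, 4.14 and 4.41 in BMDM. Its means differed by 1.28 (SE 0.12, limma adjusted p = 5.7e-05), and 4 of its 6 arrays were below their own median. Slc50a1, the mammalian SWEET carrier, was the bright member and averaged 8.88 ± 0.20 in BSM and 8.14 ± 0.26 in BMDM (SD, n = 3 each), a difference of 0.74 (limma adjusted p = 0.0054). Slc5a2 (0.51), the renal glucose carrier SGLT2, and Slc5a9 (0.41) also passed. When the array medians were set equal 2 of the 8 were called, 1 of them Slc5a10 (1.09, limma adjusted p = 7.4e-05). With Expression Console 0 of the 6 measured passed, among them Slc50a1 with 0.40 (adjusted p = 0.22). Slc5a10 was not measured there, so its difference was not checked in that table.

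Enzymes that act on hexoses once they are in the cell moved both ways. Of 7 measured genes of hexose phosphorylation and release 2 were higher and 2 lower in BSM, with a median of 0.26. Hk1, the hexokinase of most tissues, averaged 6.11 ± 0.19 in BSM and 7.04 ± 0.046 in BMDM (SD, n = 3 each), a difference of -0.93 (SE 0.12, limma adjusted p = 0.00031), and was also lower in the Expression Console table (-1.20, adjusted p = 0.0035). Hk2, its inducible relative, averaged 8.72 ± 0.17 in BSM and 8.14 ± 0.10 in BMDM, a difference of 0.58 (SE 0.12, adjusted p = 0.0044). Hk1 and Hk2 thus differed in opposite directions in the Aroma table, but in the Expression Console table the difference of Hk2 was 0.27 and did not pass (adjusted p = 0.22). Hk3 (-0.43) was lower and G6pc3, the glucose-6-phosphatase of many tissues, was higher (0.61), though not in the Expression Console table (0.29, adjusted p = 0.23). For Hk3 the call was lost when the values were quantile normalized again (-0.24, adjusted p = 0.098), and Hk3 was not measured in the Expression Console table.

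Of 6 measured genes of fructose and polyol metabolism 2 were lower in BSM and 1 was higher, and their median was 0.0032. Fructokinase, the first enzyme of dietary fructose breakdown, is encoded by Khk, which had 7.61, 7.94 and 7.87 in BSM and 8.16, 8.28 and 8.08 in BMDM. Its arrays did not overlap, and the difference of -0.36 was far smaller than that of Slc2a5 and of the other sign (SE 0.12, limma adjusted p = 0.036). In the Expression Console table it was -0.51 (adjusted p = 0.072), and after quantile normalization again it was -0.13 (adjusted p = 0.34). Sord, the sorbitol dehydrogenase that makes fructose, differed by -0.59 (adjusted p = 0.0092), a call also lost when the values were quantile normalized again (-0.35, adjusted p = 0.053). Sord was not measured in the Expression Console table. Mpi, which interconverts mannose-6-phosphate and fructose-6-phosphate, had 8.24, 8.59 and 8.54 in BSM and 6.93, 6.95 and 6.88 in BMDM. It differed by 1.54 (SE 0.12, limma adjusted p = 1.4e-05), and by 1.24 in the Expression Console table.

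**Figure D3:**
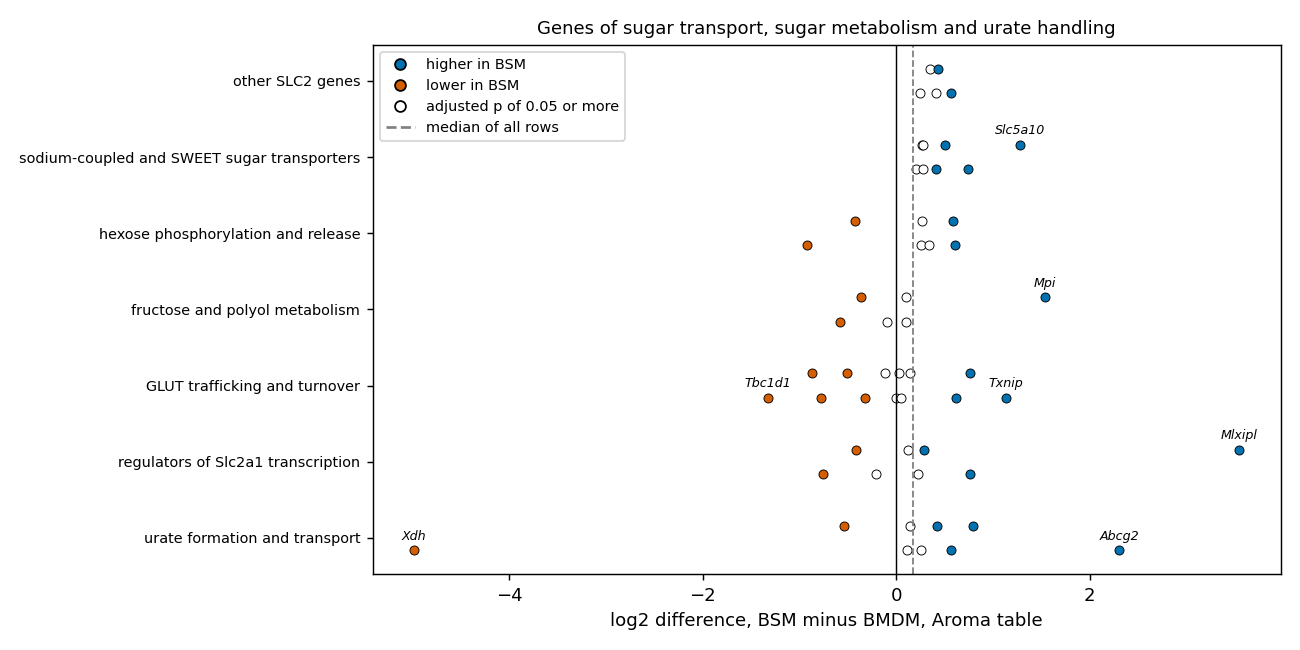
Difference between BSM and BMDM (log2, horizontal axis, Aroma table) of each measured gene in 7 lists around sugar transport, one point per gene, blue where higher and orange where lower in BSM at an adjusted p under 0.05; the dashed line is the median of all rows (0.18). Most genes lie within 1 of 0, with Mlxipl at 3.54, Abcg2 at 2.30 and Xdh at -4.98 far out.

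Of 13 measured genes of GLUT trafficking and turnover 3 were higher and 5 lower in BSM, with a median of -0.0028. Txnip encodes an arrestin-like protein that draws GLUT1 from the cell surface, and it had 11.98, 11.81 and 12.02 in BSM and 10.68, 10.82 and 10.91 in BMDM. It was higher in BSM by 1.14 (SE 0.11, limma adjusted p = 5.9e-05), while its relative Arrdc4 was lower by 0.87 on the log2 scale, with means of 6.64 ± 0.26 in BSM and 7.51 ± 0.096 in BMDM (adjusted p = 0.0012). Tbc1d1, a Rab GTPase-activating protein that holds back GLUT4, differed by -1.32 (SE 0.11, adjusted p = 2e-05), and Aspscr1, the GLUT4 tether TUG, by -0.78 (adjusted p = 0.00092). Tbc1d4, of the same list, went the other way (0.76, limma adjusted p = 0.00058) but was not measured with Expression Console. Txnip, Arrdc4, Tbc1d1 and Aspscr1 were called in the same directions in the Expression Console table. After quantile normalization again the list had 7 higher and 3 lower, so its balance turned with the scaling.

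Of 8 regulators of Slc2a1 transcription 3 were higher and 2 lower in BSM, and their median was 0.18, as was that of all rows. Mlxipl, which encodes the glucose-responsive factor ChREBP, stood out with 8.82, 8.53 and 8.60 in BSM and 5.30, 4.98 and 5.03 in BMDM. The BMDM arrays were below their own medians, and the means of 8.65 ± 0.15 in BSM and 5.11 ± 0.17 in BMDM (SD, n = 3 each) differed by 3.54 (SE 0.13, 11.7-fold, limma adjusted p = 1.5e-07), against 2.37 or 5.18-fold in the Expression Console table. Its dimerisation partner Mlx differed by -0.76 (adjusted p = 0.00042). Myc differed by 0.76 (adjusted p = 0.014), which did not pass with centred arrays (0.57, adjusted p = 0.058), and Sp1, the GC box factor, by -0.42 (adjusted p = 0.020), which did not pass after quantile normalization again (-0.14, adjusted p = 0.37). With centred arrays 1 of the 8 was higher and 3 were lower.

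Of 9 genes of urate formation and transport 4 were higher and 2 lower in BSM, with a median of 0.25. Xdh, which encodes the xanthine oxidoreductase that makes urate, had 4.81, 4.40 and 4.44 in BSM and 9.54, 9.50 and 9.54 in BMDM. All 3 BSM arrays were below their own medians, and the difference of -4.98 (SE 0.13, limma adjusted p = 3e-08) corresponded to a level 31.6-fold lower in BSM. Abcg2, an ATP-driven exporter that carries urate among other compounds, had 7.65, 7.56 and 7.58 in BSM and 5.54, 5.36 and 4.97 in BMDM, a difference of 2.30 (SE 0.15, 4.94-fold, adjusted p = 4.6e-06). Both were called in the same direction in the Expression Console table (-5.32 for Xdh and 2.09 for Abcg2). Slc16a9, a monocarboxylate carrier gene (0.79, adjusted p = 0.0003), and the renal urate exchanger gene Slc22a12 (0.56, adjusted p = 0.0059) were higher as well, of which Slc22a12 did not pass in the Expression Console table (0.10, adjusted p = 0.57). The urate carrier gene Slc2a9, with a difference of 0.03, lay between these.

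**Figure D4:**
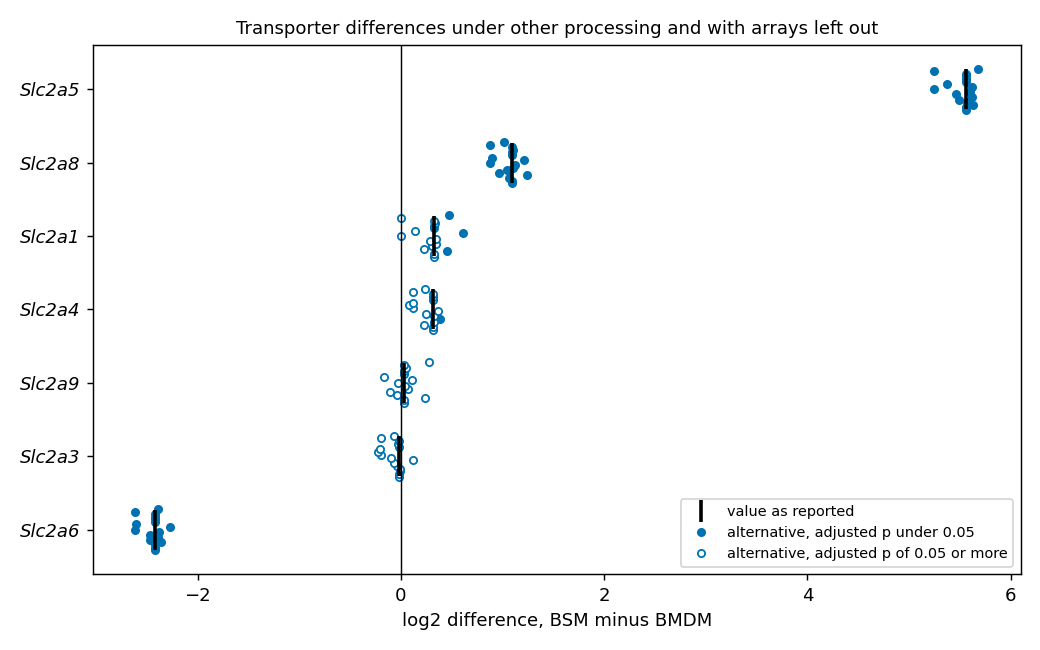
Difference of each transporter between BSM and BMDM (log2, horizontal axis) under each alternative processing or with arrays left out (circles, filled where the adjusted p was under 0.05), beside the value reported (black bars). Slc2a5 stayed between 5.25 and 5.68, Slc2a8 between 0.88 and 1.24 and Slc2a6 between -2.62 and -2.27, while Slc2a1 passed the test under 5 of 17 alternatives.

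The 3 called transporters kept their call and direction under each of 17 alternatives, which included leaving out each array in turn. Over these, the adjusted p of Slc2a5 ranged up to 0.0012, that of Slc2a6 up to 0.001 and that of Slc2a8 up to 0.023. Slc2a1 was called under 5 of its 17 alternatives and Slc2a4 under 1 of 16, whereas Slc2a3 was called under 0 of 16 and Slc2a9 under 0 of 15.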

How the data were processed

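Total RNA of flow-sorted BSM and BMDM was amplified, labelled with biotin and measured on Affymetrix Mouse Exon 1.0 ST arrays. The 12 GEO samples are 6 arrays, each summarised by 2 programs, so n is 3 per cell type and the tables were never pooled. The authors made the Aroma table of linear intensity values per gene by correcting the background as in RMA, applying quantile normalization and fitting a log-additive model to the probes. They deposited the Expression Console table as log2 values per transcript cluster after RMA, on build mm9 per the submitters' processing notes, which also name Partek (not used here). The versions of Aroma and Expression Console are not given in the sources used here. Neither table carries detection calls, so the level of a dim gene holds background, and precision is limited by how many arrays there were.

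Of 21837 Aroma rows 18821 had 1 gene symbol in the platform annotation, 763 several and 2253 none, and of 23332 Expression Console rows 14996, 1019 and 7317. Older symbols were updated through RefSeq names of GRCm38.p6 (2858 and 27 rows). A gene was represented by its row with the highest mean. Aroma values were converted to log2 and fitted in R 4.3.3 with limma 3.58.1 (lmFit, then eBayes), without covariates or a filter on dim rows and two-sided, with Benjamini-Hochberg adjustment over all rows and a threshold of 0.05. The study's methods compared linear Aroma values with a t-test, which was run as an alternative. Groups, replicate numbers and sex came from the labels. P-values measure the spread between these pools. The steps were tested on simulated data: of 50 rows changed by each size, 8% were recovered at a log2 change of 0.5, 82% at 1, 98% at 2 and 100% at 4, with 7 false calls over 21837 rows. Far fewer rows were changed there than were called in the data (49.6%), which makes the adjusted cut-off stricter. These shares therefore check the steps and do not give the power for a transporter that was not called.

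The transporters, gene lists and marker lists were chosen with earlier results of these data known. The text names the 7 transporters, every other SLC2 gene, up to 4 called genes of each list with the largest differences, the defining markers and the 3 genes most like Slc2a5. Tbc1d4 is named in addition. Of the marker lists, neuron (2 of 9 measured higher, 2 lower) and oligodendrocyte (2 of 5 higher, 2 lower) are not described above. The lymphocyte list (0 of 4 higher, 3 lower) is described beside Slc2a6 alone.

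Alternatives tried were a block for the replicate number, a covariate for sex, each array left out, the Expression Console table, quantile normalization again, arrays centred on their medians, the brighter rows alone, eBayes with trend and robust settings, the methods' t-test and the mean of a gene's rows. The male pools alone and the named Expression Console rows were added after seeing the data.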

Additional observations from a re-analysis of the deposited data

How the results depend on the processing

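The counts of transporters called, 2 higher and 1 lower in BSM, were 2 or 3 higher and 1 lower under every one of the 17 alternatives. The third one was Slc2a1 without BSM replicate 1 (0.46), after quantile normalization again (0.61), with the brighter rows alone (0.33, with 5 transporters measured), with eBayes set to trend and robust (0.33) and, added after seeing the data, with the male pools only (0.47). It was Slc2a4 without BSM replicate 3 (0.38). Slc2a1 turned to -0.0008 in the Expression Console table and again with its named rows only, an alternative also added after seeing the data. Slc2a3 turned positive without BMDM replicate 2 (0.12). Slc2a9 turned negative without BSM replicate 2 (-0.04), without BSM replicate 3 (-0.11), without BMDM replicate 3 (-0.03) and with centred arrays (-0.16). Leaving out single arrays, Slc2a3 ranged from -0.10 to 0.12 and Slc2a9 from -0.11 to 0.23. None of these turned values passed the test, and the cause was not tested.

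Over all rows, 10838 were called (6120 higher and 4718 lower), against 6734 in the Expression Console table (1955 and 4779), 9045 with centred arrays (3253 and 5792) and 8882 after quantile normalization again (4646 and 4236). The median difference of all rows was -0.05 in the Expression Console table and -0.01 with centred arrays. Of the rows no dimmer than the median row, 7839 of 10919 were called (3342 and 4497), and of 14996 named Expression Console rows 5756 (1611 and 4145). The methods' t-test called 8877 after Benjamini-Hochberg adjustment. Each transporter had 1 row, so the mean of a gene's rows could only repeat its value.

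The replicate block gave 2 higher and 1 lower transporters and 10319 called rows. Deviations of arrays with the same number correlated by 0.065, 0.0021 and 0.011, and BSM replicate 3 correlated best with BMDM replicate 2 (0.11), so the numbers were not taken as pairs. Slc2a4 on all 6 arrays, Slc2a3 on 5 of 6 and Slc2a5 on the BMDM arrays lay below the array median, which limits what their ratios can show.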

Other observations

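The genes next to the transporters were chosen after their values were seen, as 2 protein-coding genes on each side in RefSeq gene order. Of 28 measured neighbours 14 were higher and 5 lower in BSM, where 28.0% of all rows were higher and 21.6% lower. These counts are from the Aroma table, where the median difference of all rows was 0.18. They were not repeated with centred arrays or in the Expression Console table, where 8.38% of all rows were higher. Beside Slc2a5, Gpr157, which encodes an orphan G protein-coupled receptor, averaged 8.10 ± 0.12 in BSM and 5.53 ± 0.18 in BMDM (SD, n = 3 each), a difference of 2.57 (SE 0.12, limma adjusted p = 8e-07). On the other side, the family member Slc2a7 differed by 0.43, and farther out H6pd (-0.28, adjusted p = 0.051) and Car6 (0.26, adjusted p = 0.18) did not pass. Beside Slc2a6, which was lower in BSM, Mymk, known for myoblast fusion, averaged 8.26 ± 0.25 in BSM and 4.99 ± 0.35 in BMDM, a difference of 3.26 in the opposite direction (SE 0.20, adjusted p = 3.1e-06), while Cacfd1 on the other side differed by -0.60. Near Slc2a3, which did not differ past the threshold, the complement receptor gene C3ar1 averaged 11.20 ± 0.19 in BSM and 5.51 ± 0.10 in BMDM, a difference of 5.69 (SE 0.13, adjusted p = 1.7e-08). Next to Slc2a8, Garnl3 differed by 2.60 and the ribosomal protein gene Rpl12 by -1.06. Zfp691, beside Slc2a1, differed by 3.24 (adjusted p = 1.4e-07).

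The hypoxia-response core ACGTG was found in the RefSeq promoter window of Slc2a1, once, and in none of the other 4 windows, while 19.6% of all windows held at least 1. Slc2a9 had none of the 4 motifs searched, and 48.3% of its window was G or C.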
